A study of Mus musculus with 5 samples.

Results

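The 37 genes described here belong to the transcriptional response to low oxygen and to glycolysis, and their levels were taken from mouse gastric organoids, small epithelial cultures grown from stomach. They were chosen by symbol, with earlier results of these data known. They are 15 hypoxia response genes, the HIF subunit gene Hif1a and 15 glycolytic enzyme genes, together with 2 regulators of glycolytic flux (Pfkfb3 and Pfkfb4) and 4 glucose and lactate transporter genes. All 37 were among the 17583 genes tested. Each gene was read through the probe whose transcript accession maps to its symbol, and through the probe of highest mean level where it has several. For 36 members that probe cleared background on all 5 arrays, the exception being Slc2a3. Levels below are log2 processed signals minus the array's 75th percentile, so that 0 is that percentile, and they are compared between arrays but not between genes.

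One-colour Agilent arrays were made from 5 organoid cultures, 1 array each. Tumour-derived organoids came from subcutaneous tumours and had lost Trp53: 2 of them carried a hairpin against Cdh1 (shCdh1 #1 and shCdh1 #2, taken as 2 samples of the group shCdh1), 1 carried Pik3caH1047R and 1 carried Apc580D. The control was a line from Trp53flox/flox mice, with pLKO.1 and shLuc, a luciferase hairpin, taken before it was placed under the skin. All 5 were labelled as female stomach, grown without treatment in one medium containing EGF, R-spondin1, Noggin, Y27632, Jagged-1 and CHIR-99021. The labels do not say whether the tumours grew from the control line, so tumour passage, Trp53 loss and the added lesion cannot be told apart in any comparison with it. Further tumour-derived organoids named in the design text were not analysed here. The labels do not say whether the 2 shCdh1 cultures came from separate animals or from the same parent line. Their p-values therefore cover the spread of these samples alone, in which hairpin, tumour and technical differences cannot be told apart.

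In cells with enough oxygen, prolyl hydroxylases mark the alpha subunits of HIF for destruction. When oxygen falls the subunits persist, pair with ARNT and switch on genes whose control regions hold a short core sequence, among them genes for blood vessel growth, mitochondrial turnover, acid balance and glucose use. Glycolytic enzymes are partly under the same control but are also made at high levels in most growing cells. In carcinomas, including those of the stomach, VEGF and the glucose transporter GLUT1 are widely used readouts of this pathway.

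The core of the hypoxia response element is ACGTG or GCGTG, read on both strands, and its presence in the promoters of the members is shown before their levels. Promoter windows from RefSeq on GRCm38.p6 span 300 bases around an annotated transcript start. 34 of the 37 members had an entry, with 49 windows between them. The core was found in 38 of the 49 windows (77.6%) and in 43.8% of all 32851 windows in the table. For the hypoxia response genes it was in 14 of 19 windows (73.7%) and for the glycolytic enzymes in 17 of 23 (73.9%). All 13 response genes with an entry and 12 of 15 enzyme genes had it in at least 1 window. ACGTG alone, on either strand, was in 57.9% of the response windows, 43.5% of the enzyme windows and 19.6% of all windows. The 6 windows below are the most upstream one of each of 3 hypoxia response genes that were at least 2-fold higher in tumours, of Eno2, the enzyme gene with the widest spread, and of 2 enzyme genes that differed little. They are written 5′ to 3′ on the gene's strand with the core or its reverse complement in capitals, and adjoining capitals can hold overlapping matches: CACGTG, for example, counts as a match on each strand.
Vegfa, chr17:46032328-46032627, minus strand, 0 matches: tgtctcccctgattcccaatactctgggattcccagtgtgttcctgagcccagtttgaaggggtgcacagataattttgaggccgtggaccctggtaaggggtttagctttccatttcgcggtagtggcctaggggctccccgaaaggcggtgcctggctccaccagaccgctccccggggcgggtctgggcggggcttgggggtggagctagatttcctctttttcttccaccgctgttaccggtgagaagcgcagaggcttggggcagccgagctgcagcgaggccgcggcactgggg
Ankrd37, chr8:45999801-46000100, minus strand, 4 matches: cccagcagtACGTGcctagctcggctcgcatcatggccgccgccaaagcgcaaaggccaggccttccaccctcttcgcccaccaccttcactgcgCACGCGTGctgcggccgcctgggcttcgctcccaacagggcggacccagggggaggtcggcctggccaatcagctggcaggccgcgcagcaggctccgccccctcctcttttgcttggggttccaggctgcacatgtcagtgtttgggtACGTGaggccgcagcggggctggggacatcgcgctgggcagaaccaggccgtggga
Ddit4, chr10:59951721-59952020, minus strand, 2 matches: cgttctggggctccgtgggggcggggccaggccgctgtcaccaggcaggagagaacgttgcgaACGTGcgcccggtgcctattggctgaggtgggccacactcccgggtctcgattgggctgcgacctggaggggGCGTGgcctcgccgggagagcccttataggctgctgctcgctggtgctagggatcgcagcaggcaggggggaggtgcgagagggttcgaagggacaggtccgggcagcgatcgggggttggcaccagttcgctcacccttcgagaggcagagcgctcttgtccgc
Eno2, chr6:124769624-124769923, minus strand, 0 matches: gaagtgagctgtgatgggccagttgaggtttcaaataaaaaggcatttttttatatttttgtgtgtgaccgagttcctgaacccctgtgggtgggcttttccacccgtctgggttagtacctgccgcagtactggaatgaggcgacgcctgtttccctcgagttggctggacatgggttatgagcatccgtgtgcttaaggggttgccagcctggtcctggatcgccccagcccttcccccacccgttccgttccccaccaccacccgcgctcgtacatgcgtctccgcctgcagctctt
Ldha, chr7:46845554-46845853, plus strand, 7 matches: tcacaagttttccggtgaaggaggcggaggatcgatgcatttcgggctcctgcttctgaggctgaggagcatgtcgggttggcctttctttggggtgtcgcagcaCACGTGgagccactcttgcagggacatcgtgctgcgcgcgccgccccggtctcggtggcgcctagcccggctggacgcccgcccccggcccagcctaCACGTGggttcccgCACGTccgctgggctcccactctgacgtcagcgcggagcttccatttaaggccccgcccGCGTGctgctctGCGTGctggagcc
Pgk1, chrX:106186850-106187149, plus strand, 2 matches: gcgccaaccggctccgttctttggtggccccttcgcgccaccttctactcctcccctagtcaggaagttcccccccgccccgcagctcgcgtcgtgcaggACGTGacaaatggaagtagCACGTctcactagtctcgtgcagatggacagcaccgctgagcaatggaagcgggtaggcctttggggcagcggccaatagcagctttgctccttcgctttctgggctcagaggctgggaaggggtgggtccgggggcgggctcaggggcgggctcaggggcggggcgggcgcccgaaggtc
A match is a run of letters and not a measured binding site, and a window without one says nothing of sites elsewhere. The second Vegfa window, at a start further downstream, held 2 matches.

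Before the results, 3 facts about the arrays bear on them. Control and both shCdh1 arrays were on one slide, and Pik3ca and Apc on the other, so shCdh1 against control and Pik3ca against Apc were compared within a slide, while Pik3ca and Apc against control were not. The Pik3ca array went against its label: the X-inactivation transcript Xist stood at −8.14 there, against −0.90 to −0.69 on the other 4 arrays, and 4 Y-linked genes (Uty, Kdm5d, Eif2s3y and Ddx3y) cleared background on that array only. It is called Pik3ca below as labelled, and values without it are given for some of the results. Of the targeted genes, Cdh1 and Trp53 followed their labels, with Cdh1 at 0.07 and 0.26 in shCdh1 #1 and #2, 4.58 in Pik3ca, 4.48 in Apc and 4.39 in the control, and Trp53 between −5.86 and −4.86 in the 4 tumour arrays, against 0.85 in the control. The Apc transcript was at −2.97 and −3.15 in shCdh1 #1 and #2, −3.36 in Pik3ca and −3.24 in Apc, against −2.89 in the control. The Pik3ca transcript was at 2.97 and 2.33 in shCdh1 #1 and #2, 2.23 in Pik3ca and 1.45 in Apc, against 3.40 in the control. These levels do not check those 2 alleles. Of 15 gastric epithelial markers with a probe, 14 were well above background on all 5 arrays, with a summed level (in multiples of the 75th percentile) of 537.0 to 698.0 in tumours, against 892.0 in the control.

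Most of the 37 genes were somewhat higher in the tumour-derived organoids than in the control, and the 15 chosen hypoxia response genes were more so than the glycolytic enzymes. The lists were chosen with earlier results of these data known, so this contrast is not independent of the data. Over the tumour mean, the 30 other HIF targets described further below stood close to the enzymes. Their median difference was 0.16, against 0.61 for the 15 response genes and 0.15 for the enzymes. Vegfa, which encodes the main growth factor of blood vessels, differed most among the response genes, at 4.74-fold. No member passed the test over all genes: limma with Benjamini-Hochberg adjustment over 17583 genes called 21 genes in tumours against control (0.119%), and 0 of the 37. At an unadjusted p under 0.05 there were 3 members, Vegfa, Ddit4 and Aldoc, against 13.3% of all genes tested, which is a smaller share than the background. At least 2-fold higher were 6 members (Vegfa, Ankrd37, Ddit4, Eno2, Pfkfb3 and Slc2a3), against 9.88% of all genes, and 0 were at least 2-fold lower, against 6.98%. Differences of any size were upward for 33 of 37 members, against 55.4% of all genes. In 20 of 37 all 4 tumour arrays lay above the control, against 30.2% of all genes, and in 0 did all 4 lie below, against 24.4%. With each array scaled to its median instead, the counts were 3 members at least 2-fold higher and 13 with all 4 tumours above the control. That scaling moved the median of all genes by −0.14, and the share of higher calls among all genes differing by 2-fold was 48.6% with it and 58.6% with the 75th percentile.

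**Figure D1:**
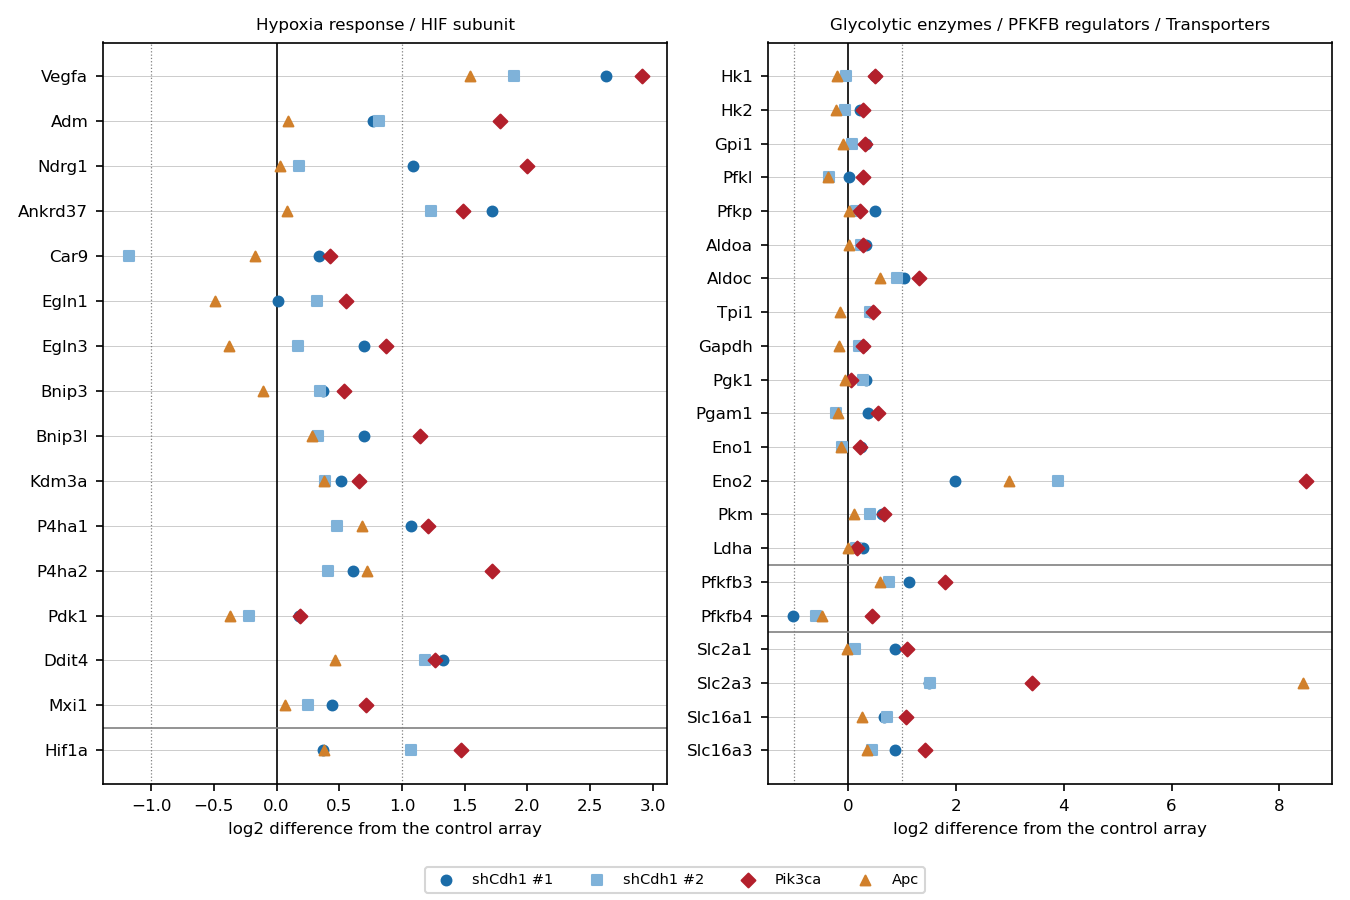
Difference of each tumour-derived array from the control array (log2, x axis) for the 37 members, with hypoxia response genes and Hif1a on the left and enzymes, PFKFB regulators and transporters on the right. Each symbol is 1 array, horizontal rules divide the gene groups, dotted lines mark 2-fold, and the 2 panels have different x scales. All 4 symbols lie right of 0 for 20 genes, and Eno2 and Slc2a3 reach beyond 8 on 1 array each. The Slc2a3 symbols of both shCdh1 arrays come from signals not well above background.

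Vegfa had levels of 5.76 and 5.02 in shCdh1 #1 and #2, 6.04 in Pik3ca and 4.67 in Apc, against 3.13 in the control. Every tumour array was above the control, by 6.2-fold, 3.71-fold, 7.51-fold and 2.91-fold in that order. The fitted difference was 2.24 ± 0.59 (log2, SE, n = 4 tumours and 1 control; limma adjusted p = 0.275) and 2.02 without Pik3ca. The other 3 Vegfa probes gave 1.51, 0.68 and 1.16, each with all 4 tumours above the control, so the direction was shared by every probe and the size was not.

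Adm encodes adrenomedullin, a peptide that acts on vessels. Its levels were 3.64 and 3.69 in shCdh1 #1 and #2, 4.65 in Pik3ca and 2.96 in Apc, against 2.87 in the control. Pik3ca stood 3.42-fold above the control and Apc 1.06-fold. The fitted difference over tumours was 0.86 ± 0.63 (limma adjusted p = 0.606) and 0.56 without Pik3ca.

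Ndrg1, a stress-responsive gene much used as a hypoxia marker, had levels of 6.84 and 5.92 in shCdh1 #1 and #2, 7.75 in Pik3ca and 5.78 in Apc, against 5.75 in the control. It was 4.01-fold higher in Pik3ca and 2.13-fold higher in shCdh1 #1, while shCdh1 #2 and Apc stood within 1.13-fold of the control. The tumour difference of 0.83 ± 0.82 (limma adjusted p = 0.707) was about as large as its error, and it was 0.43 without Pik3ca.

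Ankrd37, a small ankyrin-repeat gene induced by HIF, had 4.22 and 3.73 in shCdh1 #1 and #2, 3.99 in Pik3ca and 2.58 in Apc, against 2.50 in the control. Both hairpins and Pik3ca were 2.35-fold to 3.3-fold above the control and Apc was close to it. The fitted difference was 1.13 ± 0.66 (limma adjusted p = 0.525). Ddit4, an inhibitor of mTORC1 signalling, followed the same order, with 8.0 and 7.85 in shCdh1 #1 and #2, 7.94 in Pik3ca and 7.14 in Apc, against 6.68 in the control. Its difference was 1.06 ± 0.40 (limma adjusted p = 0.366) and 0.99 without Pik3ca.

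Car9, the cell-surface carbonic anhydrase that helps acid leave the cell, was above the control on 2 of 4 tumour arrays, as was Pdk1. It had 6.65 and 5.13 in shCdh1 #1 and #2, 6.74 in Pik3ca and 6.14 in Apc, against 6.31 in the control. The hairpins stood on opposite sides of the control, and shCdh1 #2 was at 0.441 times its level. The second Car9 probe gave the same order of the hairpins, 4.43 and 2.61, against 4.09 in the control. The tumour difference was −0.15 ± 0.67 (limma adjusted p = 0.945), and it was 0.20 without shCdh1 #2.

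Egln1 and Egln3 encode the prolyl hydroxylases PHD2 and PHD3, the oxygen sensors that are themselves HIF targets. Egln1 had 3.79 and 4.10 in shCdh1 #1 and #2, 4.33 in Pik3ca and 3.29 in Apc, against 3.78 in the control. Egln3 had 5.31 and 4.77 in shCdh1 #1 and #2, 5.48 in Pik3ca and 4.22 in Apc, against 4.61 in the control. Both were highest in Pik3ca and below the control in Apc, and their tumour differences of 0.10 ± 0.44 and 0.34 ± 0.53 were smaller than their errors. That of Egln3 was 0.22 without shCdh1 #1, 0.16 without Pik3ca and 0.58 without Apc, and that of Egln1 was −0.0468 with arrays scaled to their medians.

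Bnip3 and Bnip3l mark mitochondria for removal. Bnip3 had 6.98 and 6.96 in shCdh1 #1 and #2, 7.14 in Pik3ca and 6.50 in Apc, against 6.61 in the control. Bnip3l had 4.54 and 4.17 in shCdh1 #1 and #2, 4.98 in Pik3ca and 4.12 in Apc, against 3.84 in the control. Bnip3l was above the control on every tumour array and reached 2.2-fold in Pik3ca, and its second probe gave 0.57 against 0.61 for the tumour difference. Without Pik3ca the Bnip3l difference was 0.44.

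P4ha1 and P4ha2 encode the catalytic subunits of collagen prolyl 4-hydroxylase. P4ha1 had 1.56 and 0.97 in shCdh1 #1 and #2, 1.70 in Pik3ca and 1.17 in Apc, against 0.49 in the control. P4ha2 had 2.71 and 2.52 in shCdh1 #1 and #2, 3.82 in Pik3ca and 2.83 in Apc, against 2.11 in the control. All tumour arrays lay above the control for both, and the fitted differences were 0.86 ± 0.35 for P4ha1 (limma adjusted p = 0.392) and 0.86 ± 0.54 for P4ha2 (limma adjusted p = 0.552). Without Pik3ca these differences were 0.75 for P4ha1 and 0.58 for P4ha2.

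The 3 other response genes differed little. Kdm3a, a histone demethylase, and Mxi1, a MYC antagonist, were above the control on every tumour array, by 0.49 ± 0.22 and 0.37 ± 0.31. Pdk1, the kinase that holds pyruvate back from mitochondria, was above the control in shCdh1 #1 and Pik3ca and below it in shCdh1 #2 and Apc, with a difference of −0.06 ± 0.31. Hif1a itself, the oxygen-regulated subunit, had 2.15 and 2.85 in shCdh1 #1 and #2, 3.25 in Pik3ca and 2.16 in Apc, against 1.78 in the control. It was above the control on every tumour array, at 2.76-fold in Pik3ca, with a fitted difference of 0.82 ± 0.51 (limma adjusted p = 0.546) and 0.61 without Pik3ca. The array measures its transcript, whereas the pathway acts mainly on the protein.

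**Figure D2:**
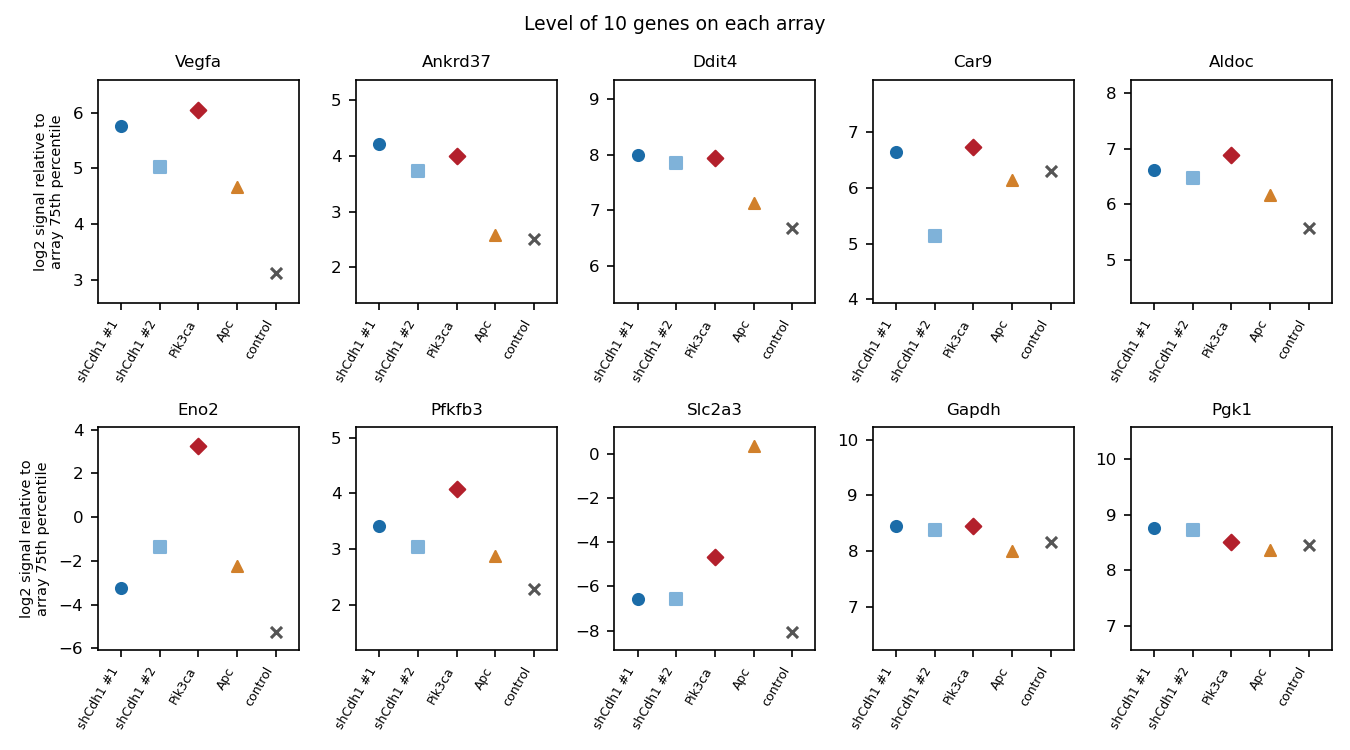
Level of 10 members on each array (y axis, log2 signal minus the array's 75th percentile), each with its own y range of at least 4 units. From left to right in each panel are the 4 tumour-derived arrays and the control, 1 point per array. Vegfa, Ddit4, Aldoc, Eno2 and Pfkfb3 have all tumour points above the control, Car9 has tumour points on both sides, and Gapdh and Pgk1 stay close to it. Slc2a3 was well above background in Pik3ca and Apc only.

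The glycolytic enzymes stood closer to the control than the response genes did. Leaving aside Aldoc and Eno2, the other 13 enzyme genes differed between tumours and control by −0.11 to 0.45 (log2), with a median of 0.15 and 12 of them higher, of which 5 lay below 0 with arrays scaled to their medians. By the probe used, their single arrays ranged from 0.766-fold to 1.58-fold of the control, and 10 of the 13 were below the control in Apc. Other probes went further: 1 Gapdh probe was at −0.87 (log2) in Apc. Other probes of Ldha and Pkm were at 0.86 and 0.84 in Pik3ca. None of these 13 reached 2-fold on any tumour array. Several of these genes, Gapdh among them, have near-identical processed copies in the genome, and the share of their signal that comes from such copies was not tested.

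In pathway order, the hexokinases came first. Hk1 had 5.07 and 4.53 in shCdh1 #1 and #2, 5.06 in Pik3ca and 4.36 in Apc, against 4.57 in the control. Hk2, the inducible hexokinase, had 2.82 and 2.54 in shCdh1 #1 and #2, 2.88 in Pik3ca and 2.37 in Apc, against 2.60 in the control. Both lay on either side of the control, with differences of 0.18 ± 0.37 for Hk1 and 0.05 ± 0.28 for Hk2. That of Hk1 was 0.0781 without shCdh1 #1 and 0.0818 without Pik3ca.

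Pfkl and Pfkp encode the liver and platelet forms of phosphofructokinase, the committed step. Pfkl had 3.11 and 2.75 in shCdh1 #1 and #2, 3.38 in Pik3ca and 2.72 in Apc, against 3.10 in the control. Pfkp had 5.15 and 4.82 in shCdh1 #1 and #2, 4.87 in Pik3ca and 4.68 in Apc, against 4.66 in the control. Pfkl was the only enzyme gene whose tumour mean lay below the control (−0.11 ± 0.34), and Pfkp was higher by 0.22 ± 0.26.

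The aldolases differed from each other. Aldoa, the widely expressed form, had 8.87 and 8.78 in shCdh1 #1 and #2, 8.83 in Pik3ca and 8.56 in Apc, against 8.54 in the control. Aldoc, known mainly from brain, had 6.61 and 6.48 in shCdh1 #1 and #2, 6.89 in Pik3ca and 6.17 in Apc, against 5.57 in the control. The Aldoc difference was 0.97 ± 0.33 (limma adjusted p = 0.338) and 0.85 without Pik3ca, with 1.1 from its second probe, while that of Aldoa was 0.21 ± 0.23.

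The enolases gave the widest contrast within one step. Eno1, the general form, had 7.60 and 7.25 in shCdh1 #1 and #2, 7.56 in Pik3ca and 7.22 in Apc, against 7.36 in the control. Eno2, the form typical of neurons and endocrine cells, had −3.26 and −1.35 in shCdh1 #1 and #2, 3.26 in Pik3ca and −2.24 in Apc, against −5.24 in the control. Every tumour array was above the control for Eno2, by 3.94-fold, 14.8-fold, 362-fold and 7.97-fold in that order, whereas Eno1 was within 1.18-fold of the control on every array. The Eno2 difference was 4.34 ± 2.52 (limma adjusted p = 0.521), 2.95 without Pik3ca and 2.81 with normexp background correction. Eno2 rests on a single probe.

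Of the remaining enzyme genes, Gpi1, Tpi1, Gapdh, Pgk1, Pgam1 and Ldha differed between tumours and control by 0.13 to 0.28, each less than its SE. Gapdh, often used as a loading control, had 8.44 and 8.37 in shCdh1 #1 and #2, 8.44 in Pik3ca and 8.0 in Apc, against 8.17 in the control. All 6 Gapdh probes were below the control in Apc, from −0.17 by the probe used to −0.87, and above it on the other 3 tumour arrays. Ldha, which turns pyruvate into lactate, had a difference of 0.15 ± 0.22. Its second, dimmer probe gave 0.43, with 0.77 and 0.12 in shCdh1 #1 and #2, 0.86 in Pik3ca and −0.02 in Apc. Pkm, the pyruvate kinase of growing cells, had the largest difference of the 13 at 0.45 ± 0.30 and lay above the control on every tumour array. The 5 that lay just below 0 under median scaling were Hk2, Gapdh, Pgk1, Pgam1 and Eno1.

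Pfkfb3 and Pfkfb4 set the level of fructose 2,6-bisphosphate, the activator of phosphofructokinase. Pfkfb3 had 3.42 and 3.04 in shCdh1 #1 and #2, 4.08 in Pik3ca and 2.87 in Apc, against 2.29 in the control. Pfkfb4 had −1.45 and −1.03 in shCdh1 #1 and #2, 0.00 in Pik3ca and −0.91 in Apc, against −0.43 in the control. Pfkfb3 was above the control on every tumour array, by 1.06 ± 0.51 (limma adjusted p = 0.449; 0.82 without Pik3ca), and Pfkfb4 was below it on 3 of 4, by −0.42 ± 0.57 (−0.22 without shCdh1 #1 and −0.70 without Pik3ca).

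Transporters bring glucose in and carry lactate out. Slc2a1 (GLUT1) had 5.15 and 4.41 in shCdh1 #1 and #2, 5.37 in Pik3ca and 4.27 in Apc, against 4.29 in the control. Slc16a1 (MCT1) had 3.47 and 3.53 in shCdh1 #1 and #2, 3.88 in Pik3ca and 3.06 in Apc, against 2.81 in the control. Slc16a3 (MCT4, the lactate exporter) had 5.68 and 5.24 in shCdh1 #1 and #2, 6.24 in Pik3ca and 5.16 in Apc, against 4.82 in the control. All 3 were highest in Pik3ca and lowest among tumours in Apc, and their fitted differences were 0.51 ± 0.51, 0.68 ± 0.35 and 0.76 ± 0.47. Without Pik3ca these were 0.32, 0.54 and 0.55.

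Slc2a3 (GLUT3) went the other way. It was well above background in Pik3ca, at −4.66, and in Apc, at 0.38, and not in shCdh1 #1 and #2, at −6.56 and −6.55, or in the control, at −8.05. Against the lowest signal measurable on the control array it was at least 2.65-fold higher in Pik3ca and at least 87.3-fold higher in Apc. Its second probe was also highest in Apc, at −4.79, where alone it was well above background. The place of Slc2a3 among members at least 2-fold higher in tumours rests partly on arrays not well above background. In shCdh1 against the control it rests on such arrays alone. Without Slc2a3 those counts are 5 and 4. Its errors in the comparisons between groups come from the hairpin pair, whose signals were not well above background, so they do not describe the spread of a measured signal.

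The contrast between induced response genes and enzymes was read from list medians on each array. The 15 response genes had a median difference from the control of 0.70 and 0.35 in shCdh1 #1 and #2, 1.14 in Pik3ca and 0.08 in Apc. The 15 enzyme genes had 0.32 and 0.15 in shCdh1 #1 and #2, 0.28 in Pik3ca and −0.10 in Apc, and all genes tested had 0.08, 0.09, 0.06 and −0.01 in that order. The response median was above the enzyme median on every tumour array, by 0.38, 0.20, 0.86 and 0.18. Over the tumour mean the medians were 0.61 for response genes, 0.15 for enzymes and 0.06 for all genes. Response genes exceeded enzymes by 0.47, and by 0.29 without Pik3ca. With the slide as a block the value was 0.27, which sets only the shCdh1 pair against the control. Pik3ca and Apc add nothing to it, because their slide holds no control. In 10 of 15 response genes and in 5 of 15 enzyme genes all 4 tumour arrays lay above the control, against 30.2% of all genes. Among the 30 other HIF targets the tumour median was 0.16, close to that of the enzymes, and all 4 tumour arrays lay above the control for 8 of 30. By array, the medians of those 30 were 0.19 and 0.24 in shCdh1 #1 and #2, 0.39 in Pik3ca and −0.03 in Apc. In Pik3ca 25 of the 30 were above the control, against 54.3% of all genes. At least 2-fold higher there were 10 of 30, against 12.1%, so other targets were also raised on that array. Over the tumour mean, the contrast with the enzymes belongs to the chosen list of 15, and those other targets did not share it. These are descriptions of lists that were chosen with earlier results of these data known. The arrays share 1 control, whose own error enters all 4 differences.

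**Figure D3:**
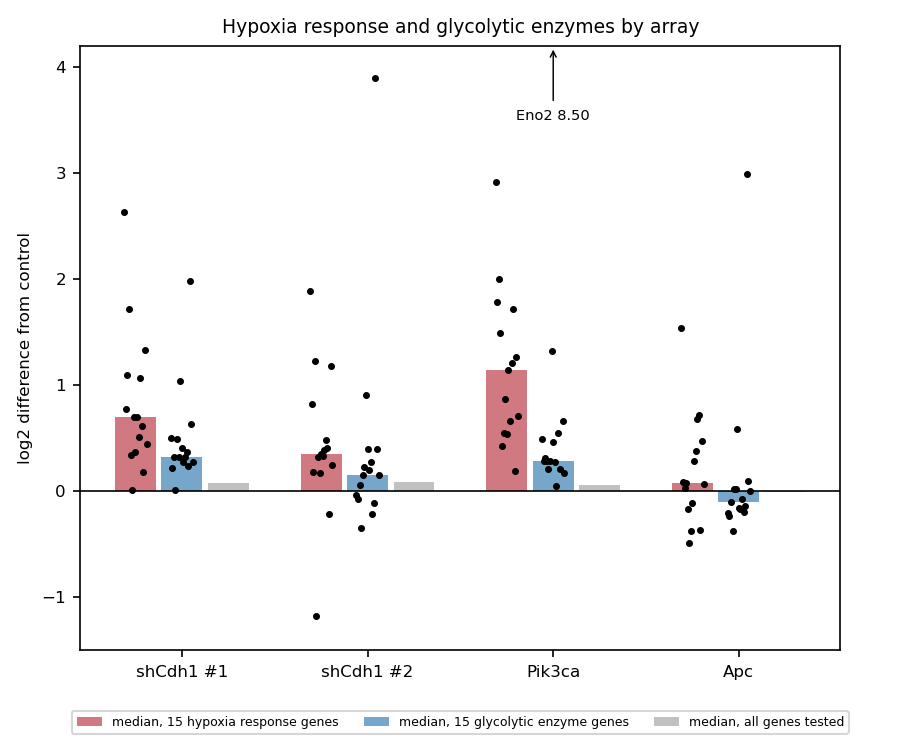
Difference from the control array (log2, y axis) on each tumour-derived array, with bars for the median of the 15 hypoxia response genes, the 15 glycolytic enzyme genes and all genes tested, and dots for single member genes. The response bar is above the enzyme bar on all 4 arrays and is tallest in Pik3ca (1.14). Eno2 in Pik3ca (8.50) lies beyond the axis and is marked by an arrow.

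The shCdh1 pair was compared with the control on one slide. Cdh1 encodes E-cadherin, and the comparison sets its knockdown, together with Trp53 loss and tumour passage, against the control line. Over all genes limma called 0 genes here (0.0%), with 1712 at an unadjusted p under 0.05 (9.74%), 5 of them members (Vegfa, Ankrd37, Ddit4, Aldoc and Slc2a3). At least 2-fold higher were 5 members (Vegfa, Ankrd37, Ddit4, Eno2 and Slc2a3), against 8.95% of all genes. Slc2a3 was not well above background on any array of this comparison, so its place in both lists is not a measured difference. With shCdh1 #2 left out the count of members at least 2-fold higher was 9. At least 2-fold lower were 0 members, against 7.51% of all genes, and 33 of 37 were higher by some amount, against 56.6%. Both hairpins stood above the control by more than the gap between them for 19 members, against 25.6% of all genes, and below it for 1, Pfkfb4, against 17.1%. The hairpins differed from each other in a shared direction: shCdh1 #1 was above shCdh1 #2 in 30 of 37 members, against 50.8% of all genes, including 13 of 15 response genes and 14 of 15 enzymes. The exceptions were Adm, Egln1, Hif1a, Eno2, Pfkfb4, Slc2a3 and Slc16a1.

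Pik3ca had the highest tumour level for 27 of 37 members, against 24.9% of all genes, and for 8 of 15 enzymes. The median enzyme difference from the control was 0.32 in shCdh1 #1 and 0.28 in Pik3ca. Against the control, limma called 0 genes (0.0%), with 2030 at an unadjusted p under 0.05 (11.5%), 12 of them members. All 37 members were higher by some amount, against 54.3% of all genes, and 16 were at least 2-fold higher, against 12.1%. The 16 were Vegfa, Adm, Ndrg1, Ankrd37, Bnip3l, P4ha1, P4ha2, Ddit4, Hif1a, Aldoc, Eno2, Pfkfb3 and all 4 transporters. No member was at least 2-fold lower, against 10.0% of all genes. These are differences between 2 single arrays on different slides, which also differed in Xist and Y-linked signal.

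Apc was close to the control for most of the module. Limma called 0 genes (0.0%), with 1586 at an unadjusted p under 0.05 (9.02%), 1 of them a member (Slc2a3). At least 2-fold higher were 3 members, Vegfa, Eno2 and Slc2a3, against 11.3% of all genes. No member was at least 2-fold lower, against 6.49% of all genes. Above the control by any amount were 20 of 37, against 49.3% of all genes, with 10 of 15 response genes and 5 of 15 enzymes among them. Scaling to the median moved all genes by −0.22 here, and the share of higher calls among genes differing by 2-fold was 48.3% with it and 63.6% with the 75th percentile.

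Pik3ca and Apc were hybridised on the same slide and can be set against each other without the control. The 2 arrays also differed in Xist, at −8.14 in Pik3ca and −0.69 in Apc, and in Y-linked signal. Genotype, sex and sample identity therefore cannot be told apart in this comparison. Pik3ca was higher for 36 of 37 members, against 54.0% of all genes, the exception being Slc2a3. At least 2-fold higher in Pik3ca were 11 members, against 5.61% of all genes: Vegfa, Adm, Ndrg1, Ankrd37, Egln1, Egln3, Hif1a, Eno2, Pfkfb3, Slc2a1 and Slc16a3. Under quantile scaling the count was 6. Only Slc2a3 was at least 2-fold lower, against 8.45% of all genes, at 32.9 times the Pik3ca level in Apc. Eno2 was 45.5-fold, Ndrg1 3.93-fold, Adm 3.22-fold and Vegfa 2.58-fold higher in Pik3ca. Limma called 0 genes (0.0%), with 1083 at an unadjusted p under 0.05 (6.16%), and 6 of these were members. The adjusted p was 0.577 for Adm (1.69 ± 0.31), 0.620 for Eno2 (5.51 ± 1.15) and 0.305 for Slc2a3 (−5.04 ± 0.31), and the error of 2 single arrays is here taken from the hairpin pair.

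**Figure D4:**
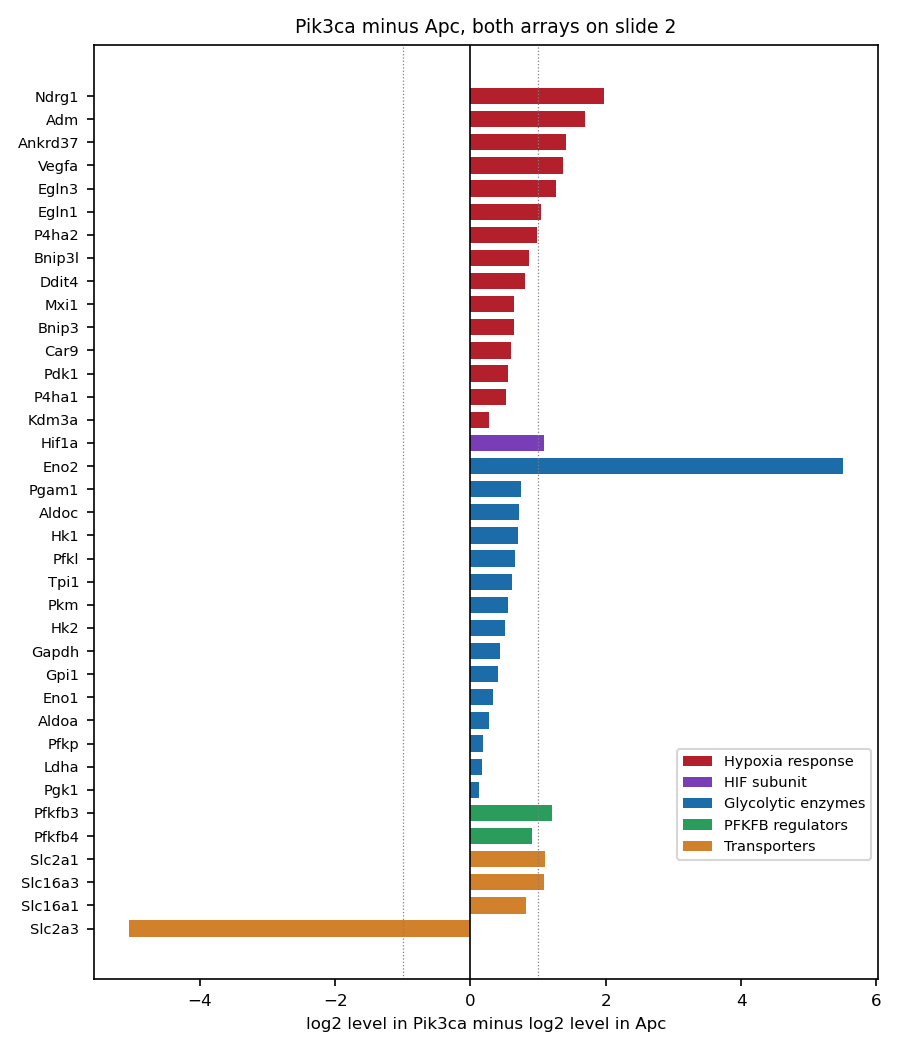
Level in Pik3ca minus level in Apc (log2, x axis) for the 37 members, grouped by role and sorted within each group, with dotted lines at 2-fold. Each bar is the difference of 2 single arrays. Bars point right for 36 genes, Eno2 is the longest at 5.51, and Slc2a3 points left at −5.04.

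Among the 4 tumour arrays Pik3ca was highest for 27 of 37 members, against 24.9% of all genes, and Apc was lowest for 29, against 31.3%. Both held for 20 members, against 10.2% of all genes. By role, Pik3ca was highest for 13 of 15 response genes and 8 of 15 enzymes, and Apc was lowest for 12 of 15 response genes and 13 of 15 enzymes. The Apc count depended on scaling, at 16 under quantile scaling. Bulk RNA cannot tell fewer cells expressing a gene from less RNA per cell.

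Other genes of the pathway, none of them a member, were read in 5 lists, of which 88 of 91 genes were tested and 0 passed in tumours against control. Among 12 genes of the HIF machinery the median difference was 0.19. Epas1, which encodes HIF-2 alpha, had 2.60 and 2.41 in shCdh1 #1 and #2, 3.58 in Pik3ca and 1.77 in Apc, against 1.77 in the control, the same order as many members. Arnt, the shared partner subunit, was above the control on all 4 tumour arrays (0.45 ± 0.23). The asparaginyl hydroxylase gene Hif1an and the prolyl hydroxylase gene Egln2 were below it on all 4, by −0.61 ± 0.26 and −0.59 ± 0.23.

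Among 30 other HIF targets the median was 0.16, with 4 genes at least 2-fold higher, against 9.88% of all genes, and 0 at least 2-fold lower, against 6.98%. Stc1, a secreted glycoprotein gene, had −3.11 and −1.77 in shCdh1 #1 and #2, −0.39 in Pik3ca and −1.84 in Apc, against −5.44 in the control. Its difference was 3.66 ± 0.99 (limma adjusted p = 0.28), 3.20 without Pik3ca and 1.99 with normexp background correction. Hilpda, a lipid droplet gene, had 4.40 and 4.11 in shCdh1 #1 and #2, 4.35 in Pik3ca and 3.52 in Apc, against 2.90 in the control. Loxl2, a lysyl oxidase, and Wsb1 were also above the control on all 4 tumour arrays, by 1.53 ± 0.53 and 0.84 ± 0.42.

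Among 21 further genes of glycolysis the median was 0.06. Hkdc1, a hexokinase-like gene, had 0.01 and 1.75 in shCdh1 #1 and #2, 0.63 in Pik3ca and −2.46 in Apc, against −4.09 in the control (4.07 ± 1.56, limma adjusted p = 0.372). Ldhb, the lactate dehydrogenase subunit of oxidative tissues, had 1.46 and 2.45 in shCdh1 #1 and #2, 1.23 in Pik3ca and 2.98 in Apc, against 4.03 in the control. Every tumour array was below the control for Ldhb, by −2.0 ± 0.74 (limma adjusted p = 0.364). Ldha stood close to the control by the probe used, and its second probe gave 0.43. Pklr, the liver and red cell pyruvate kinase, was lower on all 4 (−0.91 ± 0.52), and Ldhc was higher on 3 of 4 (0.90 ± 0.67).

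Genes acting on the entry of pyruvate into mitochondria (pyruvate dehydrogenase subunits, its kinases and phosphatases, and the mitochondrial carriers) had a median of −0.25 over 12 genes. All 4 tumours were below the control for 6 of them, against 24.4% of all genes, and above it for 2, against 30.2%. The kinases hold entry back and the other products promote it, so the list has no single direction. Pdhx, a pyruvate dehydrogenase component, differed by −0.74 ± 0.54, the phosphatase gene Pdp1 by −0.71 ± 0.61 (−0.40 without Pik3ca) and the kinase gene Pdk2 by −0.68 ± 0.37. Pdk3, another kinase of the complex, was above the control on all 4 tumour arrays (0.61 ± 0.25).

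Other ligands of the VEGF and adrenomedullin families, with receptors and receptor accessory proteins, had a median of 1.00 over 13 genes. Of these, 6 were at least 2-fold higher, against 9.88% of all genes, and 0 at least 2-fold lower, against 6.98%. The ligand gene Vegfc, 1 of the 6, was below the control in shCdh1 #1, at −7.35 against −5.82, and above it on the other 3 tumour arrays. 9 of the 13 cleared background on every array, and Flt1 and Kdr, 2 of the 6, did not in the control. Ramp3, a receptor accessory protein for adrenomedullin, had −2.33 and 0.56 in shCdh1 #1 and #2, 0.03 in Pik3ca and 1.94 in Apc, against −3.85 in the control. Pgf, a ligand of the VEGF family, was above the control on all 4 tumour arrays (1.48 ± 0.48, limma adjusted p = 0.327), as were Ramp1 (1.14 ± 0.65) and the receptor gene Calcrl (0.68 ± 0.70, and 0.30 without Pik3ca). Flt1, the VEGF receptor that also binds Pgf, is named after its values were seen: it was well above background on all 4 tumour arrays and not in the control, by at least 4.09-fold and 31.7-fold in shCdh1 #1 and #2, 62.6-fold in Pik3ca and 47.9-fold in Apc.

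Markers of other cell types were read beside these genes. The 8 endothelial markers summed to 0.206 to 0.267 times the 75th percentile in tumours, against 0.354 in the control, with 3 of them well above background on all 5 arrays. That direction rested on Emcn, an endothelial sialomucin gene, which was at −7.99 and −8.03 in shCdh1 #1 and #2, −8.0 in Pik3ca and −8.30 in Apc, against −2.54 in the control, where alone it was well above background. The Emcn difference rests on 1 control array and on tumour signals not well above background, whose spread is not that of a measured signal. Without Emcn, a choice made after seeing the data, the other 7 summed to 0.203 to 0.263 in tumours, against 0.182 in the control. Kdr, the main VEGF receptor gene of endothelium, was well above background in shCdh1 #2, Pik3ca and Apc, at −4.18, −5.18 and −4.87, and not in shCdh1 #1, at −8.04, or the control, at −8.33. Cdh5 and Tek were well above background in shCdh1 #1 only, at −4.69 and −4.24, while Pecam1 stood at −4.58 to −4.19 in tumours, against −4.37 in the control. The 8 fibroblast markers summed to 0.104 to 0.268 in tumours, against 0.0834 in the control, the 8 leukocyte markers to 16.0 to 21.0 in tumours, against 11.7 in the control, and 5 erythroid markers to 0.158 to 0.177 in tumours, against 0.125 in the control. Well above background on no array were 1 of 8 endothelial, 3 of 8 fibroblast, 2 of 8 leukocyte and 3 of 5 erythroid markers. The part of other cells in the differences of the members was not tested.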

How the data were processed

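Expression was measured in 5 mouse organoid samples, 1 array each: 4 tumour-derived and 1 control, grouped by the labels. Per the labels' protocols, RNA was labelled with Cy3, and per the submitters' processing notes Agilent Feature Extraction 11.0.1.1 read the spots. Scanner files as deposited hold processed spot intensity, background-subtracted and detrended, with no normalization between arrays per the file headers. The table of values deposited by the authors is in log2 units: its differences, plotted on those of the scanner values, had a slope of 1 and r of 1 over 53335 probes, so scale and direction are settled, while the baseline taken from each probe is unknown. Its column medians were 0.0738 and 0.0312 for shCdh1 #1 and #2, 0.0225 for Pik3ca, −0.0796 for Apc and −0.0572 for the control.

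From 59305 non-control spots per array, outlier spots (78 to 114 per array) were dropped and no spot was saturated. The share of spots well above background was 61.8% to 65.3%, and the 75th percentile was 24 to 27.9 times local background. Precision is limited by the number of arrays. Log2 processed signal minus the array's 75th percentile was averaged over spots of a probe. Of 56605 probes, 32 lacked a usable value, 34549 mapped by accession to 1 RefSeq symbol (GRCm38.p6, names and promoter windows only) and 22024 to none. Among 23779 genes, 17583 were tested, namely those with any probe above background on 1 array or more, 14581 of them through a probe above it on all 5. Of the members, 18 have several probes, which shared the sign of the tumour difference in 15 and did not in 3.

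Limma 3.58.1 in R 4.3.3 gave 5 two-sided comparisons, adjusted by Benjamini-Hochberg over all genes tested with a threshold of 0.05, and was tested on simulated data. Tumours against control used 1 mean per side (3 residual degrees of freedom); the others used 1 mean per group (1 residual degree of freedom, from the hairpin pair), and single arrays were taken to vary as that pair does. Errors after ± are standard errors. A dim probe's bound uses the lowest signal well above background. Every array value is given for members at least 2-fold from the control on any tumour array or in a paralog pair, and up to 4 genes per pathway list with the largest tumour difference are named. The members and lists were chosen with earlier results of these data known. Alternatives were normexp background (on median spot signals, offset 50), quantile and median scaling, the mean over probes, the value table, other filters on dim genes, the slide as a block and leaving out single arrays. Python 3.11.15 made the tables.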

Additional observations from a re-analysis of the deposited data

Results flagged for a closer look

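Among the 37 members, 2 had one tumour array set apart from the other 3 by a gap that was large for the range of the group. Tpi1 stood at 6.55 in Apc, against 7.10 to 7.16 on the other tumour arrays and 6.70 in the control. Gapdh stood at 8.0 in Apc, against 8.37 to 8.44 on the other tumour arrays and 8.17 in the control. Chance flags about 1 in 20 such groups of 4.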

How the results depend on the processing

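Of the 5 comparisons, Pik3ca against Apc used no control, and the others rest on 1 control array. Pik3ca and Apc are 1 array each, and slide and genotype cannot be told apart for Pik3ca and Apc against the control. The Pik3ca array also differs from the others in Xist and Y-linked signal, so its genotype cannot be told apart from sex or sample identity. The 21 genes called in tumours against control were 49 with normexp background, 7 with genes well above background on all 5 arrays, 0 with the slide as a block (1821 unadjusted) and 0 to 19 with 1 tumour array left out, at 0 without shCdh1 #1, shCdh1 #2 or Pik3ca (2218, 2032 and 1852 unadjusted) and 19 without Apc. With the slide as a block the tumour difference is that of shCdh1 against the control, because the slide of Pik3ca and Apc holds no control. The 0 calls in the other 4 comparisons stayed 0 under the 7 alternatives that kept all arrays. Members at least 2-fold higher in tumours numbered 6, with 3 under median scaling and 4 to 9 with 1 array left out (9 without Apc). For shCdh1 the 5 members were 6 to 9 with 1 hairpin left out (9 without shCdh1 #2), and for Pik3ca against Apc the 11 were 6 under quantile scaling. Apc was lowest of the tumours for 29 members and for 16 under quantile scaling, and all 4 tumours were above the control for 20 members and 13 under median scaling; the alternatives to these rank counts were chosen after seeing the data, as was the slide block for the list medians. Response genes exceeded enzymes by 0.47, with a range of 0.27 to 0.50 over all alternatives. The tumour difference changed sign for 8 of the genes named: under median scaling it was −0.0468 for Egln1, −0.0964 for Hk2, −0.0015 for Gapdh, −0.00182 for Pgk1, −0.0177 for Pgam1 and −0.0926 for Eno1, and with the mean over probes 0.049 for Pdk1 and −0.0178 for Eno1. With 1 array left out it ran from −0.34 to 0.20 for Car9 (0.20 without shCdh1 #2), −0.0547 to 0.29 for Egln1, −0.14 to 0.05 for Pdk1, −0.0284 to 0.14 for Hk2, −0.0163 to 0.24 for Pgam1 and −0.013 to 0.11 for Eno1. The cause of these changes was not tested. Of 766 alternative values for single genes, 749 kept their direction and their side of the threshold. Part of this was fixed in advance. The filters on dim genes leave every difference as it was, and the mean over probes does so for the 19 members with 1 probe. No member or named pathway gene passed in the main setting, so keeping the side of the threshold means only not passing. The count is therefore no measure of stability. No paired analysis was possible because the labels name no pairs of samples, and #1 and #2 in shCdh1 name hairpins.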
